A study of Mus musculus with 7 samples.

Results

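The NK cell receptor genes described here were 10 genes for receptors that are carried by natural killer (NK) cells, taken by symbol from a named list: Ncr1, Klrb1c, Klrk1, Klrd1, Klrc1, Klrc2, Klre1, Klra4, Klra7 and Klra8. All 10 were found among the 22629 rows of the count table. RNA was sequenced from 7 subcutaneous tumors of C57BL/6 mice, taken 2 weeks after inoculation with 1242 KPC cells, a pancreatic ductal adenocarcinoma (PDA) line from a genetically engineered mouse. Of these, 3 tumors (1, 4 and 5) were formed with sgScramble cells, which carried Cas9 and a nontargeting guide, and 4 tumors (15, 16, 18 and 2) with sgScramble cells that also carried cytoplasmic ovalbumin (icOVA). By the methods, the ovalbumin vector is doxycycline-inducible and also encodes GFP, and the icOVA cells were sorted and cloned from single cells, so the groups may differ in the clone and the vector as well as in the antigen. Ovalbumin was induced with doxycycline food from the day of inoculation, and the methods set a larger number of inoculated cells for the inducible tumors than the default for subcutaneous tumors. The study grew tumors from inducible cells both with and without doxycycline, and the labels call the control tumors only scramble. Whether these were inducible cells kept without doxycycline or cells without the vector, and so which cell number they received, was not settled here. The mice were 6 weeks old when bought and were then housed for 2 weeks before use. The comparison asks which NK receptor transcripts differ when the cancer cells make a foreign antigen.

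NK cells kill stressed, infected or transformed cells when signals from activating receptors outweigh those from inhibitory receptors that bind MHC class I molecules. Most of these receptors in the mouse are C-type lectin-like proteins encoded together in the NK gene complex, where the NKG2 family, the Ly49 family (Klra genes) and the NKR-P1 family (Klrb1 genes) lie as neighbours. Several of them, among them Klrk1, Klrd1 and Klrc1, are also made by activated CD8 T cells, while Ncr1 and the Ly49 receptors are largely features of NK cells and related innate lymphocytes.

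Total counts ran from 30904855 (sgScramble tumor 5) to 37510591 (icOVA tumor 15), so that 1 count was worth 0.0270 to 0.0320 CPM (counts per 1000000, after scaling by TMM, the trimmed mean of M-values). Counts of the members ran from 61 to 2105 in a tumor, and all 10 passed the filter on low counts. The OVA row checked the labels, with 4.35, 2.58 and 2.94 CPM in sgScramble tumors 1, 4 and 5, against 186, 308, 98.2 and 248 CPM in icOVA tumors 15, 16, 18 and 2. Every icOVA tumor held far more OVA RNA than any sgScramble tumor, and among the icOVA tumors it was most abundant in tumors 16 and 2.

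Of the 10 members, 3 were called higher in icOVA tumors by the quasi-likelihood test of edgeR, at a Benjamini-Hochberg adjusted p below 0.05 over 17489 genes, against 588 genes or 3.36% of all genes tested. These were Klrd1 (CD94), Klrc1 (NKG2A) and Klrc2 (NKG2C). None was lower in edgeR, DESeq2 or limma-voom, against 444 genes or 2.54% of all genes tested in edgeR, and 6 members had an unadjusted p below 0.05, all of them higher in icOVA tumors, beside 27.2% of all genes tested with such a p in either direction. In 5 members (Klrk1, Klrd1, Klrc1, Klrc2 and Klra7) all 4 icOVA tumors lay above all 3 sgScramble tumors, as they did for 11.3% of all genes tested. The median log2 fold change of the members was 0.93, from 0.30 for Klra4 to 1.31 for Klrc2, beside -0.0048 for all genes tested. All 10 log2 fold changes were above 0, but relative to Ptprc, the pan-leukocyte gene for CD45, which itself rose by 1.08 on the log2 scale, those of 9 members were below 0 and Klrc2 alone was above it.

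The number of calls changed with the tool and with single tumors. DESeq2 called 6 members higher, beside 8.91% of all genes tested, and limma-voom 1, beside 2.96%. When sgScramble tumor 1 or 5 or icOVA tumor 15 was left out, edgeR called 0 members and 0 (0%) of all genes tested, although the unadjusted p was below 0.05 for 7, 6 and 6 members, beside 17.4%, 16.4% and 19.8% of genes. Without icOVA tumor 2 it called 0 members, beside 6 genes or 0.0347% of those tested, and 7 members had an unadjusted p below 0.05, beside 23.2% of genes. It called 1 member without icOVA tumor 18 (beside 3.58% of genes), 3 without sgScramble tumor 4 (beside 4.82%) and 6 without icOVA tumor 16 (beside 5.88%). The labels name each tumor as a separate sample but not the animal, so p-values measure the spread between these samples.

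**Figure D1:**
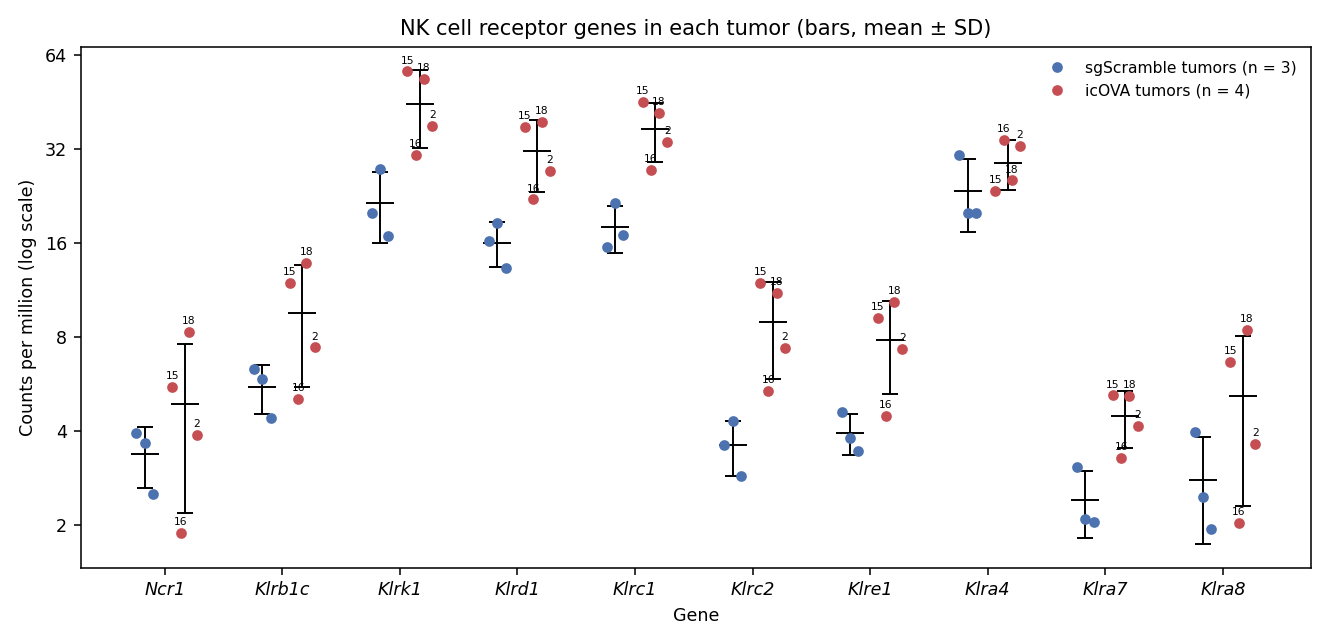
CPM (log scale) of each NK cell receptor gene in the 3 sgScramble tumors (blue) and the 4 icOVA tumors (red, with tumor numbers), with bars for the mean and SD of each group. Tumors 15 and 18 were the highest of all tumors in 9 of the 10 genes and tumor 16 the lowest of the icOVA tumors in the same genes, Klra4 being the exception.

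Klrd1 encodes CD94, the shared partner of the NKG2A and NKG2C chains. It measured 16.3, 18.6 and 13.4 CPM in sgScramble tumors 1, 4 and 5, against 37.8, 22.1, 39.1 and 27.3 CPM in icOVA tumors 15, 16, 18 and 2. All icOVA tumors were above all sgScramble tumors, with tumor 16 nearest to them. Klrd1 was 1.96-fold higher in icOVA tumors (95% interval 1.38 to 2.80), a log2 fold change of 0.97 (SE 0.22, edgeR adjusted p = 0.0455). With all tumors kept, the Klrd1 call was lost with limma-voom (log2 fold change 0.95, adjusted p = 0.0616). It was also lost relative to Ptprc (-0.13, adjusted p = 0.603). With 1 tumor left out, the call held only without sgScramble tumor 4 or icOVA tumor 16. Because whole tumors were sequenced, more cells that make a receptor and more receptor RNA in each cell cannot be told apart.

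Klrc1 encodes NKG2A, the inhibitory partner of CD94. Its levels were 15.5, 21.5 and 16.9 CPM in sgScramble tumors 1, 4 and 5, against 45.3, 27.5, 41.8 and 33.8 CPM in icOVA tumors 15, 16, 18 and 2. The groups did not overlap, and Klrc1 had the lowest adjusted p of the members. The fold was 2.06 (95% interval 1.51 to 2.82), a log2 fold change of 1.04 (SE 0.19, edgeR adjusted p = 0.0315). With all tumors kept, the Klrc1 call was lost only relative to Ptprc (log2 fold change -0.058, adjusted p = 0.814). With 1 tumor left out, it was lost without sgScramble tumor 1 or 5 or icOVA tumor 15 or 2. Klrc2 encodes NKG2C, the activating partner of CD94. It was measured at 3.63, 4.31 and 2.88 CPM in sgScramble tumors 1, 4 and 5, against at 12.0, 5.39, 11.1 and 7.40 CPM in icOVA tumors 15, 16, 18 and 2. Tumors 15 and 18 were again the highest, and tumor 16 was only a little above the highest sgScramble tumor. Klrc2 had the largest difference of the members, a fold of 2.48 (95% interval 1.52 to 4.06) and a log2 fold change of 1.31 (SE 0.31, edgeR adjusted p = 0.0490). With all tumors kept, this call was lost with limma-voom, upper quartile scaling, no filter on low counts, the robust fit and relative to Ptprc, at adjusted p from 0.05003 to 0.530, and with 1 tumor left out it held only without icOVA tumor 16. Klrc1 and Klrc2 are near-copies: 24.5% of the 76-base windows of the Klrc1 transcripts and 11.2% of those of Klrc2 also occur in transcripts of another gene, so the division of reads between them is uncertain. Counts of Klrc1 per count of Klrc2 were 5.05 ± 0.808 (SD, n = 3) in sgScramble tumors and 4.31 ± 0.647 (SD, n = 4) in icOVA tumors, a difference within the spread.

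Klrk1 encodes NKG2D, an activating receptor for stress-induced ligands on tumor cells. Its levels were 20.0, 27.6 and 16.9 CPM in sgScramble tumors 1, 4 and 5, against 56.9, 30.7, 53.6 and 38.1 CPM in icOVA tumors 15, 16, 18 and 2. The groups did not overlap, although icOVA tumor 16 lay close to sgScramble tumor 4. The fold was 2.08 (95% interval 1.38 to 3.14) with a log2 fold change of 1.06 (SE 0.26), and the edgeR adjusted p of 0.0524 missed the threshold.

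Ncr1 and Klrb1c, the genes for NKp46 and the NK cell antigen of the NKR-P1C type, are the members used most often to mark NK cells in C57BL/6 mice. Ncr1 was measured at 3.94, 3.68 and 2.53 CPM in sgScramble tumors 1, 4 and 5, against at 5.54, 1.89, 8.31 and 3.89 CPM in icOVA tumors 15, 16, 18 and 2. Only icOVA tumors 15 and 18 exceeded all sgScramble tumors, tumor 2 lay among them, and tumor 16 had the lowest Ncr1 level of all 7 tumors. The fold was 1.45 with a 95% interval from 0.701 to 2.998, a log2 fold change of 0.54 (SE 0.45, edgeR adjusted p = 0.475), an interval that holds both a fall and a rise. Without icOVA tumor 18 the log2 fold change of Ncr1 was 0.16 and without icOVA tumor 16 it was 0.81, neither past the threshold. Klrb1c measured 6.33, 5.86 and 4.41 CPM in sgScramble tumors 1, 4 and 5, against 12.0, 5.07, 13.8 and 7.43 CPM in icOVA tumors 15, 16, 18 and 2. Tumors 18 and 15 were again the highest and tumor 16 lay within the sgScramble range, with a log2 fold change of 0.79 (SE 0.35, edgeR adjusted p = 0.188). For Klrb1c, 413 exonic bases overlap Gm44511 on the same strand and 13.1% of its 76-base windows occur in another gene, mostly Gm44511, so its count is uncertain to that extent.

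Klre1 encodes a receptor of the same gene complex that pairs with Klri1 or Klri2. It measured 4.61, 3.80 and 3.45 CPM in sgScramble tumors 1, 4 and 5, against 9.21, 4.47, 10.4 and 7.34 CPM in icOVA tumors 15, 16, 18 and 2. All icOVA tumors but tumor 16 were above the sgScramble tumors. The log2 fold change was 0.99 (SE 0.29, edgeR adjusted p = 0.0824). Its partners Klri1 and Klri2 did not pass the threshold either, with log2 fold changes of 0.72 and 0.54.

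The Ly49 members differed in their order over the tumors. Klra7 encodes Ly49G, an inhibitory receptor for MHC class I, and measured 3.08, 2.10 and 2.05 CPM in sgScramble tumors 1, 4 and 5, against 5.21, 3.30, 5.21 and 4.17 CPM in icOVA tumors 15, 16, 18 and 2. The groups did not overlap, but the log2 fold change of 0.89 (SE 0.24) had an edgeR adjusted p of 0.0697. Klra8 encodes Ly49H, an activating receptor known for recognition of mouse cytomegalovirus. It measured 3.97, 2.46 and 1.95 CPM in sgScramble tumors 1, 4 and 5, against 6.67, 2.03, 8.43 and 3.64 CPM in icOVA tumors 15, 16, 18 and 2. Tumors 15 and 18 were high while tumors 16 and 2 lay within the sgScramble range. The log2 fold change was 0.89 (SE 0.49, edgeR adjusted p = 0.281), and 0.56 without icOVA tumor 18. Of the 76-base windows of Klra8, 19.3% occur in other Klra genes, mostly the pseudogene Klra14-ps, and of those of Klra7 5.56% occur in the pseudogene Klra13-ps.

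Klra4 encodes Ly49D, an activating receptor that signals through Tyrobp. Its levels were 30.8, 19.9 and 20.0 CPM in sgScramble tumors 1, 4 and 5, against 23.5, 34.3, 25.4 and 32.8 CPM in icOVA tumors 15, 16, 18 and 2. The groups overlapped, and the icOVA tumors stood in nearly the reverse order of the other members, with tumors 16 and 2 above tumors 15 and 18. The log2 fold change was 0.30 (SE 0.20, edgeR adjusted p = 0.372), with a 95% interval of the fold from 0.889 to 1.70. Relative to Ptprc the log2 fold change of Klra4 was -0.77 with an adjusted p of 0.0172, while over the other scalings, filters, tools and left-out tumors its adjusted p ran from 0.221 to 0.695. Its log2 fold change was 0.54 without sgScramble tumor 1, 0.20 without sgScramble tumor 4 and 0.20 without sgScramble tumor 5. Counts of Klra4 per count of Klra8 were 7.75, 8.10 and 10.3 in sgScramble tumors 1, 4 and 5, against 3.52, 16.9, 3.02 and 9.01 in icOVA tumors 15, 16, 18 and 2. The ratio was thus even in the sgScramble tumors and spread widely among the icOVA tumors, high in tumor 16 and low in tumors 15 and 18. Only 0.256% of the 76-base windows of Klra4 occur in another gene.

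**Figure D2:**
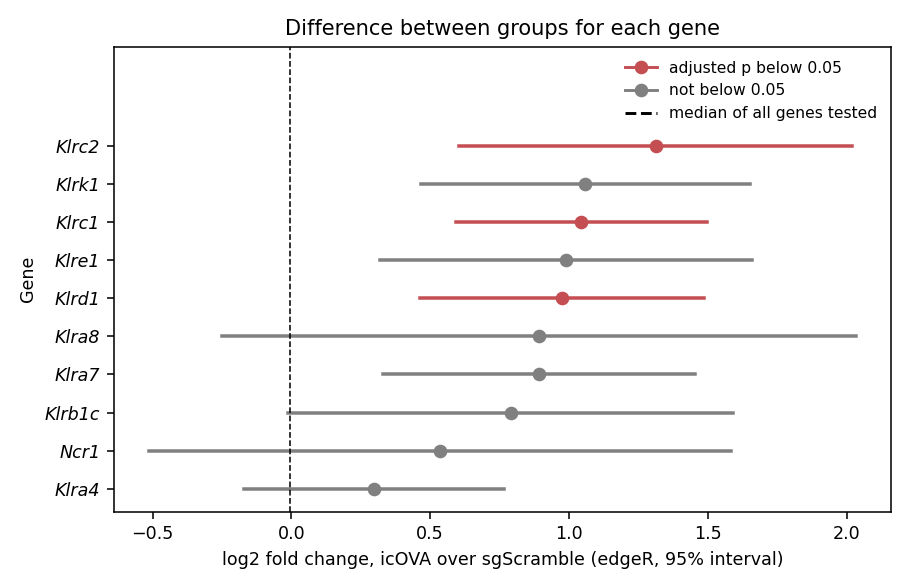
Log2 fold change of each NK cell receptor gene in icOVA over sgScramble tumors (edgeR, points) with its 95% interval (lines), in red for an adjusted p below 0.05, and the median of all genes tested as a dashed line. The intervals of 6 genes lie wholly above 0, those of Ncr1, Klrb1c, Klra4 and Klra8 include 0, and relative to Ptprc 9 of the 10 values fall below 0.

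Levels of different genes were compared as RPKM, the CPM per kilobase of merged exons. In icOVA tumors (n = 4, mean ± SD) the order was Klrd1 at 24.6 ± 6.41, Klra4 at 23.3 ± 4.28, Klrc1 at 18.7 ± 4.04 and Klrk1 at 6.24 ± 1.74 RPKM, followed by Klra8 at 4.41 ± 2.45, Klra7 at 3.53 ± 0.731, Klrb1c at 3.23 ± 1.36, Ncr1 at 3.19 ± 1.76, Klre1 at 2.25 ± 0.738 and Klrc2 at 1.54 ± 0.532 RPKM. Neighbours in this order were taken to differ where their ranges of mean ± SD did not overlap. By this measure Klrc1 and Klrk1 were the only neighbours that differed. That difference rests on the length divisor, with merged exons of 1984 bases for Klrc1 and 7183 for Klrk1. In CPM Klrk1 was the higher in icOVA tumors, at 44.8 ± 12.5 against 37.1 ± 8.01 for Klrc1, and the ranges overlapped. In sgScramble tumors (n = 3) Klra4 led at 18.9 ± 5.01 RPKM, before Klrd1 at 12.5 ± 2.04, Klrc1 at 9.07 ± 1.58 and Klrk1 at 2.99 ± 0.764 RPKM. The remaining levels there were 2.37 ± 0.893 for Klra8, 2.20 ± 0.489 for Ncr1, 1.90 ± 0.461 for Klra7, 1.87 ± 0.338 for Klrb1c, 1.13 ± 0.169 for Klre1 and 0.621 ± 0.124 RPKM for Klrc2. By the same ranges of mean ± SD, Klrc1 differed there from Klrk1, Klrb1c from Klre1 and Klre1 from Klrc2, while the ranges of the other neighbours overlapped. These differences also depend on the merged exon lengths, and in mean CPM Klrk1 was again above Klrc1. The inhibitory chain Klrc1 thus had a higher RPKM than the activating chain Klrc2 in both groups. The size of this gap depends on merged exons of 1984 bases for Klrc1 and 5812 for Klrc2. In counts the mean of Klrc1 per Klrc2 was 5.05 in sgScramble and 4.31 in icOVA tumors, with the division of reads between them uncertain.

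The members also differed in how far they moved with Ncr1. By the root mean square difference of log2 CPM, each centred on its own mean over the 7 tumors, Klrb1c (0.25) and Klra8 (0.26) were nearest to Ncr1, then Klre1 (0.38), while Klra4 (0.75) was the farthest. Counts of Klrc2 per count of Ncr1 were 0.920, 1.17 and 1.14 in sgScramble tumors 1, 4 and 5, against 2.16, 2.85, 1.33 and 1.90 in icOVA tumors 15, 16, 18 and 2. Every icOVA tumor had more Klrc2 per Ncr1 than every sgScramble tumor, and tumor 16, which was lowest in Ncr1, had the most. An exact two-sided permutation test gave p = 0.0571 for this ratio, the smallest p that 3 against 4 tumors allow, and an adjusted p of 0.2204 over the 9 members set against Ncr1, a test chosen after the values were seen. For Klrc1 per Ncr1 the exact permutation p was 0.171 and for Klra4 per Ncr1 0.971. Among 14118 other genes with a mean count of at least 50, the nearest to Ncr1 by the same measure over the 7 tumors were Ccl11 (0.10), Kcnj8 (0.12), Dpp6 (0.14), Tmem255a (0.16) and Npl (0.17), none of which passed the threshold.

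Markers of other cells moved beside the members. Of 14 T cell markers, 11 rose, with summed levels of 247, 380 and 274 CPM in sgScramble tumors 1, 4 and 5, against 680, 435, 696 and 536 CPM in icOVA tumors 15, 16, 18 and 2. Their sum was highest in tumors 15 and 18, and 13 of the 14 genes did not overlap between the groups. Thy1, their most abundant gene, did overlap, none was at 0 in any tumor, and their part in the result was not tested. Counts of Klrc1 per count of Cd3e, a T cell receptor subunit, were 1.68, 1.48 and 1.45 in sgScramble tumors 1, 4 and 5, against 1.29, 1.29, 1.42 and 1.22 in icOVA tumors 15, 16, 18 and 2. Every icOVA tumor was thus slightly below every sgScramble tumor in Klrc1 per Cd3e, while counts of Ncr1 per Cd3e were 0.299 ± 0.113 (SD, n = 3) and 0.167 ± 0.0822 (SD, n = 4) in sgScramble and icOVA tumors and overlapped. Klrc1 was the only member whose groups did not overlap in its ratio to Cd3e. For Klrc2 per Cd3e the means were 0.312 in sgScramble and 0.309 in icOVA tumors.

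Fibroblast and endothelial markers stood in a tumor order close to that of Ncr1. Their summed levels, led by Col1a1, were 4621, 10767 and 4359 CPM in sgScramble tumors 1, 4 and 5, against 16513, 3970, 23327 and 6031 CPM in icOVA tumors 15, 16, 18 and 2. Tumors 18 and 15 were highest and tumor 16 lowest in both, but sgScramble tumor 4 was high in these markers and not in Ncr1. None of the 7 genes passed the threshold in edgeR (median log2 fold change 0.87), none was at 0, and their part in the result was not tested. Of 11 myeloid markers tested, 4 rose (Cd68, Itgam, Lyz2 and Siglech), with summed levels of 1745, 2456 and 2206 CPM in sgScramble tumors 1, 4 and 5, against 3831, 3339, 4359 and 3297 CPM in icOVA tumors 15, 16, 18 and 2. Lyz2 was the most abundant of them, the neutrophil marker Ly6g was at 0 in 1 tumor and too low to test, and their part in the result was not tested. Of 8 epithelial cancer cell markers, led by Krt8, none passed the threshold (median log2 fold change 0.05), with summed levels of 5258, 4943 and 5232 CPM in sgScramble tumors 1, 4 and 5, against 5292, 5444, 3150 and 5044 CPM in icOVA tumors 15, 16, 18 and 2, so that icOVA tumor 18 held the least.

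Of 10 NK cell markers outside the members, Eomes and Nkg7 rose, and the median log2 fold change was 0.74. Their summed levels, with Il2rb the most abundant, were 154, 161 and 119 CPM in sgScramble tumors 1, 4 and 5, against 320, 181, 325 and 235 CPM in icOVA tumors 15, 16, 18 and 2. In this sum the icOVA tumors all lay above the sgScramble tumors, tumor 16 by the least. Of the 10 genes, 3 (Eomes, Nkg7 and Il2rb) had groups that did not overlap, beside 11.3% of all genes tested. The others, Klrb1f, Klri2, Klrg1, Gzma, Ctsw, Txk and Sh2d1b1, overlapped and did not pass. Of 24 other genes listed as NK cell receptors and tested, 6 rose (median log2 fold change 0.69). They included Cd226 (log2 fold change 1.24), which binds nectin-family ligands, Tigit (1.07), its inhibitory counterpart, and the early activation antigen Cd69 (0.83). The IgG receptors Fcgr3 (0.55) and Fcgr4 (0.66), which myeloid cells also carry, rose as well. The last was Klra17 (1.63), at low mean levels of 0.281 CPM in sgScramble and 0.880 CPM in icOVA tumors. It is listed by its gene family, and which cells made its RNA was not tested.

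Adaptors carry the signals of the activating receptors, which have no signaling tail of their own. Of 16 adaptor and proximal signaling genes, 10 rose, with a median log2 fold change of 0.79. Cd247, the zeta chain that serves both the T cell receptor and Ncr1, measured 4.81, 6.53 and 5.21 CPM in sgScramble tumors 1, 4 and 5, against 20.4, 12.6, 19.2 and 15.5 CPM in icOVA tumors 15, 16, 18 and 2. Its groups did not overlap, with a log2 fold change of 1.62 (SE 0.20, edgeR adjusted p = 0.0230). Tyrobp, which encodes DAP12, the partner of Klra4, Klra8, Klrc2 and Klrk1, rose by 0.69 (SE 0.15, edgeR adjusted p = 0.0418), and Fcer1g, the Fc receptor gamma chain that serves Ncr1 and Klrb1c, by 0.71 (SE 0.091, edgeR adjusted p = 0.0230). Both are also made by myeloid cells. Hcst, which encodes DAP10, the other partner of Klrk1, had a log2 fold change of 1.10 (SE 0.27) and an edgeR adjusted p of 0.0532, short of the threshold. The other adaptor and signaling genes that rose were Zap70 (1.21), Syk (1.03), Vav1 (0.86), Lcp2 (1.18), Lat (1.25), Sh2d1a (1.67) and Ptpn6 (0.61), all given as log2 fold changes.

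Ligands of the receptors are made by tumor cells and by other cells of the tissue. Of 16 ligand genes tested, Cd48, a leukocyte ligand of the receptor Cd244a, rose (log2 fold change 1.03), and the median was 0.20. H2-T23, whose product Qa-1 is the ligand of CD94 with NKG2A or NKG2C, measured 329, 354 and 306 CPM in sgScramble tumors 1, 4 and 5, against 347, 408, 334 and 372 CPM in icOVA tumors 15, 16, 18 and 2. The groups overlapped, with a log2 fold change of 0.15 (SE 0.093, edgeR adjusted p = 0.333). The NKG2D ligand genes did not pass either, with log2 fold changes of 0.55 for Raet1d, -0.16 for Raet1e and 0.80 for Ulbp1, while H60b and H60c had too few counts to test. The MHC class I genes H2-K1, H2-D1 and B2m, whose products Ly49 receptors bind, had log2 fold changes of 0.21, 0.18 and 0.07, and Clec2d, a ligand of the NKR-P1 family, had 0.35. None of these passed the threshold.

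Of 20 NK lineage and cytokine genes, 6 rose, with a median log2 fold change of 0.59. Eomes, a T-box factor of NK and memory CD8 T cells, measured 4.06, 3.40 and 3.10 CPM in sgScramble tumors 1, 4 and 5, against 8.64, 4.76, 8.92 and 6.90 CPM in icOVA tumors 15, 16, 18 and 2. It followed the pattern of the NKG2 genes, high in tumors 15 and 18, with a log2 fold change of 1.05 (SE 0.24, edgeR adjusted p = 0.0482). The other genes that rose were Ets1 (0.42), Runx3 (0.58), Il2rg (0.98), Il12rb2 (1.16) and Il21r (0.92), all given as log2 fold changes. Tbx21 (0.85), Il2rb (0.92) and Il15ra (0.89), which encode the T-bet factor and the beta and alpha chains of the interleukin-15 receptor, did not pass, with edgeR adjusted p of 0.0743, 0.0534 and 0.0540. Nfil3, a factor needed for NK development, and Il15, the cytokine that maintains NK cells, had log2 fold changes of 0.26 and 0.15.

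**Figure D3:**
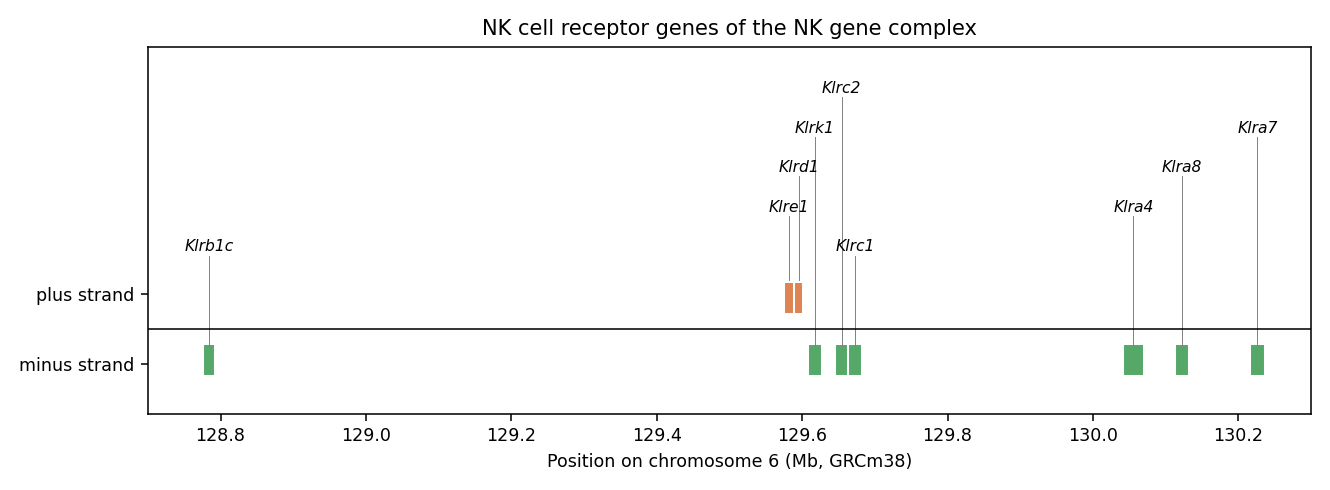
Map of the 9 members that lie on mouse chromosome 6 (x axis, position in Mb on GRCm38), drawn as boxes on the plus strand (orange) or minus strand (green). Klre1, Klrd1, Klrk1, Klrc2 and Klrc1 lie side by side, with Klrb1c and the Klra genes at either end.

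By position, 9 of the 10 members lie on chromosome 6 of GRCm38 between 128778485 and 130233322, a chromosome with 26 protein-coding Klr genes in all, and Ncr1 lies apart at chr7:4337724-4345164. Among the members, those with no overlap between groups were in the middle of the complex (Klrd1 at chr6:129591782-129598775, Klrk1 at chr6:129610323-129623864, Klrc2 at chr6:129647496-129660689 and Klrc1 at chr6:129666015-129678973) and at its end (Klra7 at chr6:130218605-130233322). Klre1, next to Klrd1, did overlap. Other Klr genes, some of them also without overlap (Klra2, Klra6, Klra17 and Klrc3), were not placed, so no pattern by position is read from this. Klra4 at chr6:130043731-130067271 and Klra8 at chr6:130115226-130129898, which stood in nearly reversed orders among the icOVA tumors, are near neighbours on the minus strand.

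Promoters from 250 bases before to 50 bases after the gene start were taken from RefSeq (GRCm38.p6) for 9 members, and Klrd1 was not matched. They were searched on both strands for 3 short motifs. The RUNX core TGTGGT, which reads ACCACA on the other strand, was in 8 of 14 member promoters, beside 16.8% of 32851 promoters in all. Some of the 14 overlap, such as those of Ncr1 and those of Klrc2, and hold the same matches. By gene, 6 members had it in at least 1 promoter, namely Ncr1, Klrb1c, Klrk1, Klrc1, Klrc2 and Klre1. It was in none of the promoters of Klra4, Klra7 and Klra8. The T-box letters AGGTGT, read on the other strand as ACACCT, were in none of the members, beside 13.7% of all promoters, and the ETS letters GGAAGT, read on the other strand as ACTTCC, were in Klrb1c alone, beside 23.8%. The promoters of 2 RUNX-matched NKG2 genes, of Ncr1 and of the Ly49 pair with nearly reversed tumor orders are printed to show this difference, 5′ to 3′ on the gene's strand, with matches to the RUNX letters in capitals. A match is a description of the letters, and a missing match says nothing about binding of the factor.
Ncr1 (chr7:4337465-4337764, plus strand): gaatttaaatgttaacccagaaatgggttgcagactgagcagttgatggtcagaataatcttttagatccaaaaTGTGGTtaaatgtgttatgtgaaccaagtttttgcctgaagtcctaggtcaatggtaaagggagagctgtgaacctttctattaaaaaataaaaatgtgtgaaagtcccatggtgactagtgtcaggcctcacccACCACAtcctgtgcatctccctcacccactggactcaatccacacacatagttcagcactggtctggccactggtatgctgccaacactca
Klrc1 (chr6:129678924-129679223, minus strand): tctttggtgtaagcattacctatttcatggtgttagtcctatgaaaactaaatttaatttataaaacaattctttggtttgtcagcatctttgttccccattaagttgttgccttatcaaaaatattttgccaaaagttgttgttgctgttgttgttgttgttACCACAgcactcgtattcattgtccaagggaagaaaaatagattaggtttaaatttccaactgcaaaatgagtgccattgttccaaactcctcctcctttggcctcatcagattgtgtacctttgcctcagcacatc
Klrc2 (chr6:129660547-129660846, minus strand): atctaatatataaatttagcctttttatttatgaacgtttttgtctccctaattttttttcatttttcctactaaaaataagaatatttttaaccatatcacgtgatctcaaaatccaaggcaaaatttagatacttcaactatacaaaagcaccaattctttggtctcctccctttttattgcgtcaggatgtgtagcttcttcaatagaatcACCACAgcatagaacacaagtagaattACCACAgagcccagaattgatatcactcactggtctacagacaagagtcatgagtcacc
Klra4 (chr6:130067222-130067521, minus strand): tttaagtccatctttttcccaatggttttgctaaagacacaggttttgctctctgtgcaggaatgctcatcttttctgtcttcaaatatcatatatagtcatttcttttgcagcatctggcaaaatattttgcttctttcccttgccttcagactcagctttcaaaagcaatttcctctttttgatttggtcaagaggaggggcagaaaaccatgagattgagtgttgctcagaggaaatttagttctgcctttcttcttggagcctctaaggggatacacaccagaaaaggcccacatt
Klra8 (chr6:130129849-130130148, minus strand): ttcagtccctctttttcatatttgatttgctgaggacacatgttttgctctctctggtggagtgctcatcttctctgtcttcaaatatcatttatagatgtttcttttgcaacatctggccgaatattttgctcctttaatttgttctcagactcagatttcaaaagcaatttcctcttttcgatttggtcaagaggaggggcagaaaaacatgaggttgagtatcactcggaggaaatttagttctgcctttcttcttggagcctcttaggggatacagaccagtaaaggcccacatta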

How the data were processed

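A table of unnormalized read counts for the 7 tumors was deposited by the authors. The methods name a TruSeq stranded total RNA kit and single reads of 76 bases, while the labels name polyA RNA. The submitters' processing notes name mm10, and the aligner and counting tool are not given in the sources used here. Genes were matched by Ensembl identifier to GENCODE M21 on GRCm38, the same assembly, and 22414 rows had a symbol. No tumor pair within a group had identical counts.

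Differences between the groups were fitted in edgeR 4.0.16 (R 4.3.3) with filterByExpr (minimum count 10, minimum total 15), TMM scaling, the quasi-likelihood test and Benjamini-Hochberg adjustment at 0.05. The standard error is the log2 fold change divided by the square root of F. CPM values use the TMM-scaled total, and log2 CPM a prior count of 2. The fit was tested on simulated data. DESeq2 1.42.0, limma-voom (limma 3.58.1), other scalings and filters, a robust fit, another prior count, summed paralogs and leaving out each tumor were tried. Ratios were tested with scipy 1.17.1. Members and lists were chosen with earlier results of these data known. Named genes are the members, their adaptors, ligands, factors and cytokine receptors, every listed gene past the threshold in the lists of related genes, the 5 genes nearest to Ncr1, Ptprc and OVA. The ratios to Ncr1, the ratios to Cd3e and the promoter motifs were chosen after the values were seen. Some listed genes are not reported here.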

Additional observations from a re-analysis of the deposited data

How the results depend on the processing

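DESeq2 called 1558 genes higher and 1278 lower in icOVA tumors and 6 members higher, and limma-voom called 518 genes higher and 1 member. Relative to Ptprc the log2 fold changes were -0.59 for Ncr1, -0.34 for Klrb1c, -0.031 for Klrk1, -0.13 for Klrd1, -0.058 for Klrc1, -0.14 for Klre1, -0.77 for Klra4, -0.24 for Klra7 and -0.27 for Klra8, and Klra4 alone passed the threshold. The cause was not tested. With 1 tumor left out, the genes higher ran from 0 to 1014, the genes lower from 0 to 716, the members called from 0 to 6 and the median log2 fold change of the members from 0.82 to 1.14. Over all alternatives that kept every tumor, paralog sums aside, 61 fold changes of single members kept direction and call. With direction kept, 4 passed the threshold anew and 6 lost it, and a further 9 changed direction. Those 9 were all relative to Ptprc, where Klra4 also passed anew and Klrd1 and Klrc1 also lost their calls. With 1 tumor left out 51 kept both, 4 passed anew and 15 lost the call. All Klra genes, members and nonmembers, summed as 1 gene had a log2 fold change of 0.48 and passed (edgeR adjusted p = 0.0296). This sum holds the nonmember Klra2, at a mean of 34.7 CPM in icOVA and 23.9 CPM in sgScramble tumors. Klra4 had 29.0 and 23.6 CPM, and none of Klra4, Klra7 and Klra8 passed alone in edgeR with all tumors kept. Klrc1, Klrc2 and Klrc3 summed as 1 gene had 1.10 and also passed (edgeR adjusted p = 0.0328). No paired analysis was possible because no tumor number occurs in both groups. The lowest member count was 61, for Klra8.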

Other observations

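Of 16 cytotoxic and cytokine effector genes, 7 rose in icOVA tumors (median log2 fold change 1.04). Gzmk, a granzyme of memory-type T cells, measured 0.835, 0.638 and 0.576 CPM in sgScramble tumors 1, 4 and 5, against 8.94, 5.65, 2.99 and 4.17 CPM in icOVA tumors 15, 16, 18 and 2. Unlike the receptor genes, Gzmk was lowest of the icOVA tumors in tumor 18, and its log2 fold change was 2.98 (SE 0.42, edgeR adjusted p = 0.0230). The others that rose were Ifng (1.08), Fasl (1.08), Nkg7 (1.25), Ccl3 (1.45), Ccl4 (1.38) and Ccl5 (1.01), all given as log2 fold changes. Ccl3 was highest in tumor 2 and Ccl4 likewise, with 34.9, 36.1, 25.8 and 45.2 CPM of Ccl3 in icOVA tumors 15, 16, 18 and 2.

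Among the innate lymphoid cell markers, Il7r (log2 fold change 1.02) and Cxcr6 (1.39) rose. Of 6 gamma delta T cell markers tested, Tcrg-C2 rose (1.27), and of 6 B cell markers tested none passed in edgeR. Among 5 liver markers, Alb fell by 4.16 and Fga fell by 4.72 on the log2 scale, with summed levels of 88.9, 46.2 and 112 CPM in sgScramble tumors 1, 4 and 5, against 9.78, 29.2, 1.47 and 25.3 CPM in icOVA tumors 15, 16, 18 and 2, Ttr being the most abundant.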
